A study of Mus musculus with 4 samples.

Results

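The translation initiation factor genes are the protein-coding mouse genes whose symbol starts with Eif and a digit, without the eIF2 alpha kinase genes (Eif2ak) and the genes of the 4E-binding proteins (Eif4ebp). The rule found 49 of 21900 protein-coding genes of the build mm10. The study mapped where ATF4, a transcription factor made under stress, sits on chromatin. Crosslinked ventricle chromatin from 4-week-old mice was caught on streptavidin beads and sequenced. The study has 2 ATF4 pull-down samples, titled ATF4-bio1 and ATF4-bio2 and called replicates 1 and 2 here, and 2 input samples of chromatin without pull-down, whose values are not analysed here. Strain, genotype and sex are not given in the labels. For the antibody, the labels of both pull-down samples say AAV and nothing more, so the source of the ATF4 that was caught, and the cells it was in, are not given. The series title names cardiomyocytes and the tissue field names heart ventricle. Nothing in the labels says that the samples came from separate animals, so an SD below measures only the spread between these samples, which may be technical.

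A list of peaks was deposited for each replicate (78746 and 88812 peaks) and another for the series (41639 peaks). The strength of a peak is given as its fold enrichment, which is the authors' own value in the series-wide list and was read for the replicates from peaks that both kinds of list share. Sequencing depth is unknown, since the lists hold no read counts, and no counting error is given. The most frequent step between neighbouring folds was 0.5 in replicate 1 and 0.443 in replicate 2. An SD below these steps is therefore no measure of precision. The replicate lists end short of the series-wide list on 9 chromosomes, and the members Eif3a, Eif4b and Eif1ax lie beyond their last peak. A gene is said to carry a peak where a peak overlaps the stated window by at least 1 bp; the input values were not used to judge it. As a check of the tissue, all 8 defining genes of heart muscle cells had a peak of the series-wide list at one of their ends (1 kb either side). The count was 0 of 5 for neurons, 0 of 4 for endothelial cells, 1 of 4 for macrophages, 2 of 4 for fibroblasts and 3 of 4 for hepatocytes. In each replicate list 8 heart muscle, 1 neuron, 2 endothelial, 1 macrophage and 3 hepatocyte genes had one. Fibroblast genes had 3 in replicate 1 and 4 in replicate 2. Over all protein-coding genes the share was 34.9% in the series-wide list, 48.2% in replicate 1 and 50.2% in replicate 2. A peak is not expression, so these counts do not give the makeup of the tissue.

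Translation of most messenger RNAs starts when eIF2, bound to GTP and the initiator transfer RNA, joins the small ribosomal subunit together with eIF1, eIF1A, eIF3 and eIF5. The cap of the message is bound by eIF4E, and eIF4G and the helicase eIF4A bring the ribosome to it. The complex eIF2B recharges eIF2 with GTP, and phosphorylation of eIF2 alpha blocks eIF2B. General initiation falls under that block, while ATF4 itself is translated more. The initiation machinery is thus upstream of ATF4 in the integrated stress response.

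Where the end peaks of some members lay is shown on 7 promoter sequences of 300 bases. They are RefSeq sequences of build GRCm38.p6, from 250 bases before to 50 bases after an annotated transcript start, 5′ to 3′ along the gene. The first 4 are subunits of eIF2B, whose summits in both replicates fell inside this window. Eif3c is shown as a member with one of the strongest peaks, and Eif4e because its summits lay at an inner start. In these 6 sequences the capitals run from the summit of one replicate to the summit of the other.
Eif2b1 (chr5:124579082-124579381, minus strand): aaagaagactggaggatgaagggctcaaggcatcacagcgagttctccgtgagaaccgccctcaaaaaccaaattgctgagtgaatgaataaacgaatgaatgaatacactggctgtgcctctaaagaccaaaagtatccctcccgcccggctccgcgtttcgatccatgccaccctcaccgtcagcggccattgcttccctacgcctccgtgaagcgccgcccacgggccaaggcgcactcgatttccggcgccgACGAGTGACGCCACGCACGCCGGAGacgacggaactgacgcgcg
Eif2b2 (chr12:85219231-85219530, plus strand): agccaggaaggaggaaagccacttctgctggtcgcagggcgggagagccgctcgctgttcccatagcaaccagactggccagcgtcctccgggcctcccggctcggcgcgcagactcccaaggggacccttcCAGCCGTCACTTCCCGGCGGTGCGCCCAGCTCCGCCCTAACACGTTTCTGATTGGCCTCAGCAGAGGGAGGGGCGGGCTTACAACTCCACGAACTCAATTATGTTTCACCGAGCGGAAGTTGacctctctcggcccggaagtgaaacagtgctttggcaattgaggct
Eif2b4 (chr5:31193090-31193389, minus strand): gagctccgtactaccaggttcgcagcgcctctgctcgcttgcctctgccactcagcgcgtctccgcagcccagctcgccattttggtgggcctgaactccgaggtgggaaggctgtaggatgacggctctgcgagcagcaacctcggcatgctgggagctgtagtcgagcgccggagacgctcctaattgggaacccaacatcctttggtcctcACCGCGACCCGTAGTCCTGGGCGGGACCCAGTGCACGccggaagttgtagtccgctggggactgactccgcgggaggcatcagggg
Eif2b5 (chr16:20498567-20498866, plus strand): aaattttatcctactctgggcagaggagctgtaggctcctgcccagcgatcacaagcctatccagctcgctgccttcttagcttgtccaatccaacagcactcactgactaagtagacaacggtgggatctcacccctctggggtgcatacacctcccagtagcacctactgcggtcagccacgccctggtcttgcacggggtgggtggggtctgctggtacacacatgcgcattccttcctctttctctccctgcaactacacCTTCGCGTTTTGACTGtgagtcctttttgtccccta
Eif3c (chr7:126566317-126566616, minus strand): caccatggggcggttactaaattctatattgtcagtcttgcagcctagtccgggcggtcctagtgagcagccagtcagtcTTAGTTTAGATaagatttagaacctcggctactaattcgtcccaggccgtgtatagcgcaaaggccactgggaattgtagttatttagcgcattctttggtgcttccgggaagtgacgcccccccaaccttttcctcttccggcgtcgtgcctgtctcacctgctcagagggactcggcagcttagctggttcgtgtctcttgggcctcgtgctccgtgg
Eif4e (chr3:138527018-138527317, plus strand): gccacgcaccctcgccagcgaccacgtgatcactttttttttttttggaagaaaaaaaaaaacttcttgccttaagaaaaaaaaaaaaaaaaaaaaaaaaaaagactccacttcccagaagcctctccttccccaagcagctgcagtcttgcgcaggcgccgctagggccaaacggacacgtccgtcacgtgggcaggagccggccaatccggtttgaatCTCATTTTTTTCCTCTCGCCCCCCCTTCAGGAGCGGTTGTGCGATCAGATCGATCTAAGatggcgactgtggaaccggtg
The last sequence is the only member promoter with a match to the core of the C/EBP-ATF response element, which is in capitals.
Eif2s3x (chrX:94212602-94212901, minus strand): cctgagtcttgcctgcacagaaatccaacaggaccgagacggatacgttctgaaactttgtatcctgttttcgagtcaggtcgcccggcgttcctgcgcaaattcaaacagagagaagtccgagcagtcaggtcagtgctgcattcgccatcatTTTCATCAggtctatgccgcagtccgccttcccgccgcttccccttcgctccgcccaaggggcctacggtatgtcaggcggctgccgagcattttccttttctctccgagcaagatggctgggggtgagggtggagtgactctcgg

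Of the 49 members, 33 (67.3%) carried a peak of the series-wide list within 1 kb of either end of the gene model, where 34.9% of all protein-coding genes did. In the replicate 1 list 39 members (79.6%) carried such a peak, against 48.2% of all genes, and in the replicate 2 list 40 (81.6%), against 50.2%. The same 39 members did so in both replicate lists, against 45.2% of all genes. No test was made of these shares, since genes of 1 experiment are not replicates. Members carried peaks in a larger share than all genes in each list, while the median fold was equal in the series-wide list. The median fold of the strongest end peak was 13.3 over the 33 members and 13.3 over all 7644 genes with one. The medians were 10.5 and 10 in replicate 1, and 12.2 and 10.2 in replicate 2. When the series-wide list was limited to its strongest 20% by fold, 5 members remained, which is 10.2%, against 5.66% of all genes. These were Eif1, Eif3c, Eif3d, Eif3h and Eif4g2.

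**Figure D1:**
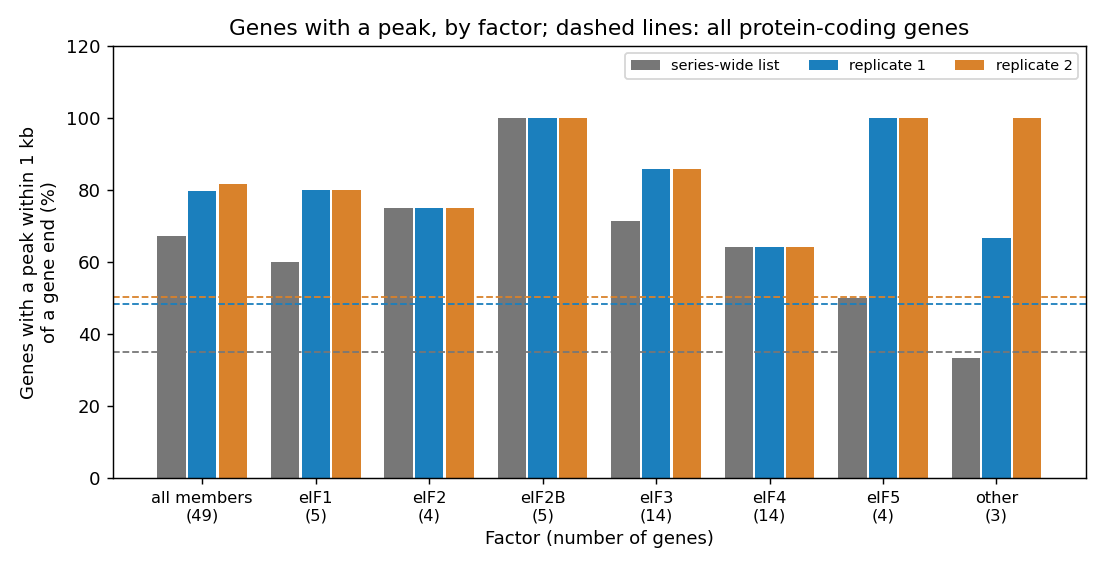
Share of genes with a peak within 1 kb of a gene end (percent), by factor, in the series-wide list (grey), replicate 1 (blue) and replicate 2 (orange). Dashed lines give the share of all 21900 protein-coding genes in the same list, and the number of genes is under each factor. All 5 eIF2B genes had a peak in each list, and the eIF5 genes had 2 of 4 in the series-wide list and 4 of 4 in both replicates.

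The strongest peaks of most members lay at the same place in both replicates. In 34 of the 39 members with an end peak in both, the strongest peaks of the replicates overlapped, and over the 39 their summits were a median of 37 bp apart. No share over all genes is given beside this count, so it is not read as particular to the members. The SD between replicates was a median of 14.6% of the mean fold. Neither replicate was the higher throughout, with 19 members higher in replicate 1 and 20 in replicate 2. This tally also holds 5 members whose strongest replicate peaks did not overlap, so that different peaks were compared in them. In Eif3k, Eif4g1 and Eif4h the strongest peaks of the replicates lay at opposite ends of the gene. Both replicates held a peak at each end of these genes. In Eif6 the strongest peaks lay 7465 bp apart, and in Eif1b 316 bp apart. No mean of these strongest peaks is given for these 5 genes.

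**Figure D2:**
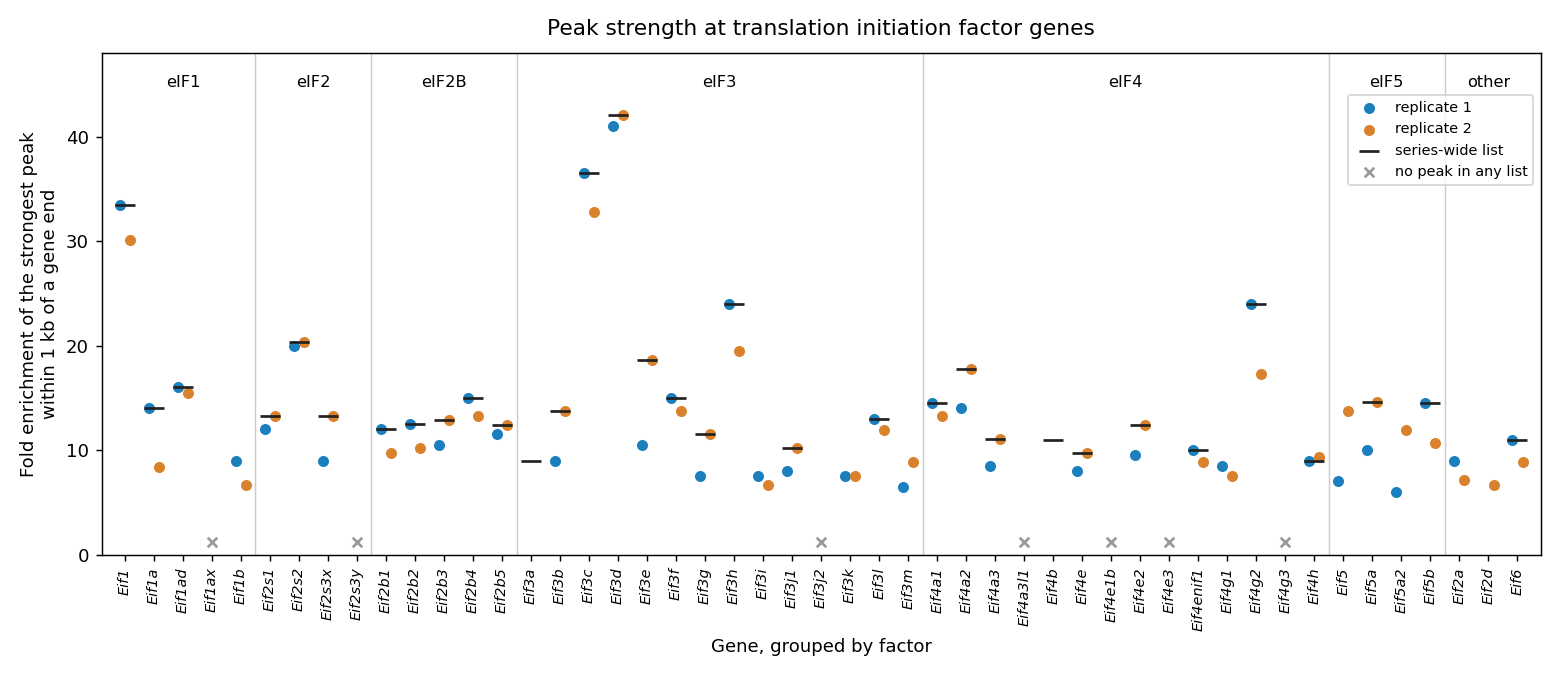
Fold enrichment (linear axis) of the strongest peak within 1 kb of a gene end for all 49 members, in replicate 1 (blue), replicate 2 (orange) and the series-wide list (dash), with a cross for members without a peak in any list. Eif3d, Eif3c and Eif1 stand above 30 in both replicates, and the 5 eIF2B genes lie between 9.75 and 15.0.

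The eIF2 genes encode the 3 subunits of the factor that carries the initiator transfer RNA. The series-wide folds of Eif2s1 and Eif2s3x were equal to the median of all genes with an end peak, and that of Eif2s2 was above 81.4% of them. Eif2s1, which encodes the alpha subunit that stress kinases phosphorylate, had a fold of 12 in replicate 1 and 13.3 in replicate 2, a mean of 12.6 ± 0.917 (SD, n = 2). Eif2s2, of the beta subunit, had 20.0 and 20.4, a mean of 20.2 ± 0.275 (SD, n = 2). Eif2s3x, the X-linked gene of the gamma subunit, had 9.0 and 13.3, a mean of 11.1 ± 3.04 (SD, n = 2). Eif2s2 was above both other genes in each replicate. Eif2s3y, the Y-linked copy, had no peak within 1 kb of its ends or within 10 kb of its body in any list. How reads that fit both copies were treated is not given in the sources used here, so values at near-identical genes are uncertain. The peak of Eif2s1 also lay at an end of Atp6v1d, a subunit gene of the vacuolar proton pump. Its series-wide summit was 396 bp before the start of Eif2s1 and 332 bp from the end of Atp6v1d. That peak cannot be assigned to either gene.

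All 5 eIF2B genes carried a peak in each of the 3 lists, between 12 and 15.0 fold in the series-wide list. Eif2b1, of the alpha subunit, had 12 in replicate 1 and 9.75 in replicate 2 (mean 10.9 ± 1.59, SD, n = 2). Eif2b2, of the beta subunit, had 12.5 and 10.2 (mean 11.3 ± 1.63, SD, n = 2). Eif2b3, of the gamma subunit, had 10.5 and 12.9 (mean 11.7 ± 1.66, SD, n = 2). The replicate ranges of these 3 genes overlap, and Eif2b3 was the lowest of them in replicate 1 and the highest in replicate 2. Eif2b4, of the delta subunit, had 15.0 and 13.3 (mean 14.1 ± 1.2, SD, n = 2), the highest of the family in each replicate. In replicate 2 it was close to Eif2b3. Eif2b5, of the catalytic epsilon subunit, had 11.5 and 12.4 (mean 12 ± 0.644, SD, n = 2). Summits sat on the starts of these genes. In the 4 sequences printed above, the replicate summits lay at 30 and 6 bases after the start of Eif2b1, 3 after and 118 before that of Eif2b2, 36 before and 0 from that of Eif2b4, and 14 and 29 after that of Eif2b5. For Eif2b3, which is not in the promoter table, the summit was 5 bp from an end of the gene model. The peak of Eif2b1 also lay at an end of Gtf2h3 and that of Eif2b4 at an end of Snx17, 47 bp and 87 bp from the summit. Those peaks cannot be assigned to either gene.

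The eIF3 genes, of the large scaffold that holds initiation factors on the small subunit, had both the strongest and some of the weakest peaks. Of 14 genes, 10 carried a series-wide end peak, and 12 did in each replicate, with series-wide folds from 9.0 to 42.1. Eif3d, whose protein can bind the cap, had 41.0 in replicate 1 and 42.1 in replicate 2 (mean 41.6 ± 0.783, SD, n = 2). Its fold was above that of 97.7% of all genes with an end peak, rank 171 of 7644. Eif3c, a core subunit, had 36.5 and 32.8 (mean 34.7 ± 2.62, SD, n = 2; rank 287). Both genes were above the other eIF3 genes with a value in each replicate. Eif3h, of a non-core subunit, had 24.0 and 19.5 (mean 21.8 ± 3.18, SD, n = 2). Eif3e had 10.5 and 18.6 (mean 14.6 ± 5.74, SD, n = 2), a difference between the replicates larger than that of any other eIF3 gene. The largest subunit gene, Eif3a, had a series-wide fold of 9.0 and lies where the replicate lists hold no peaks. The remaining members with a peak in all 3 lists (Eif3b, Eif3f, Eif3g, Eif3j1 and Eif3l) had series-wide folds from 10.2 to 15.0. Eif3i, Eif3k and Eif3m had end peaks in both replicates but none in the series-wide list. The folds were 7.5 in replicate 1 and 6.65 in replicate 2 for Eif3i, 7.5 and 7.54 for Eif3k, and 6.5 and 8.87 for Eif3m. Eif3j2, a short gene that shares older names with Eif3j1, had no end peak in any list, while Eif3j1 had 8.0 and 10.2. Of the 7 eIF3 genes with a known strand, a series-wide end peak and overlapping replicate peaks, 6 had both summits upstream of the nearest annotated start. Eif3d had them 379 and 378 bases before the start, Eif3c 160 and 170, and Eif3l 62 and 64. In Eif3j1 the replicate 1 summit was 22 bases after the start and that of replicate 2 was 281 before. The side of the start was not counted over all genes, so it is not read as particular to the eIF3 genes.

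Among the eIF4 genes, 9 of 14 carried an end peak, the same number in each list. Eif4g2, whose protein resembles eIF4G but lacks the site for eIF4E, had 24.0 in replicate 1 and 17.3 in replicate 2 (mean 20.6 ± 4.75, SD, n = 2). This was the highest mean among the eIF4 genes with an end peak in both replicates, but in replicate 2 Eif4a2 was above it. Of the helicase genes, Eif4a2 had 14 and 17.7 (mean 15.9 ± 2.64, SD, n = 2) and Eif4a1 had 14.5 and 13.3 (mean 13.9 ± 0.85, SD, n = 2). These ranges overlap, so their order does not hold across replicates. Eif4a3, of the exon junction complex, had 8.5 and 11.1 (mean 9.79 ± 1.83, SD, n = 2). Eif4e2, of a cap-binding relative that represses translation, had 9.50 and 12.4 (mean 11.0 ± 2.06, SD, n = 2). The cap-binding protein gene Eif4e was near the bottom, with 8.0 and 9.75 (mean 8.88 ± 1.24, SD, n = 2). Eif4enif1, whose protein carries eIF4E into the nucleus, had 10 and 8.87. Its peak also touched ends of Sfi1 and Gm51877. The helicase cofactor gene Eif4h had 9.0 and 8.42 at the series-wide peak, and Eif4b had a series-wide fold of 11.0 beyond the reach of the replicate lists.

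The other eIF4 genes lacked a series-wide end peak. Eif4g1, the main scaffold gene, had a peak at each end in both replicates. The strongest, 8.5 in replicate 1 and 7.54 in replicate 2, lay at opposite ends. Eif4g3, a related scaffold gene, had no peak within 1 kb of the ends of its model in any list. One lay inside the model, with its summit 162 bp from an annotated transcript start, and had 8.5 in replicate 1 and 9.31 in replicate 2. Counted by annotated starts, 28 of the 39 members with a known strand carried a series-wide peak within 1 kb, against 35.4% of all such genes. Eif4e3, Eif4e1b and Eif4a3l1 had no end peak in any list. Eif4a3l1, a short copy of Eif4a3, and Eif4e1b also had none within 10 kb of their bodies, and Eif4e3 had 2 inside its body.

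The eIF1 genes act in scanning and in the choice of the start codon. Eif1 had 33.5 in replicate 1 and 30.1 in replicate 2 (mean 31.8 ± 2.38, SD, n = 2), rank 382 of 7644. Its summits lay 564 and 567 bases after the start, inside the gene of 2151 bp. Eif1ad, which holds an eIF1A domain, had 16.0 and 15.5 (mean 15.8 ± 0.344, SD, n = 2), at a peak that also lay at an end of Banf1. Eif1a had 14 and 8.42 (mean 11.2 ± 3.94, SD, n = 2), at a peak shared with Tmed7. Eif1b, the paralog of Eif1, had only 9.0 and 6.65 in the replicates and no series-wide end peak. Eif1 was above Eif1b in each replicate, although the strongest replicate peaks of Eif1b did not overlap. Eif1ax had no peak in any list, but the replicate lists do not reach it.

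The eIF5 genes differed between the lists. Eif5b, of the factor that joins the ribosomal subunits, had 14.5 in replicate 1 and 10.6 in replicate 2 (mean 12.6 ± 2.73, SD, n = 2). Its summits lay 723 and 745 bases before its start, and the summit was 7 bp from an end of Txndc9. Eif5a, of a factor that helps peptide bonds form, had 10 and 14.6 (mean 12.3 ± 3.27, SD, n = 2). Eif5, which encodes the GTPase activator of eIF2, had 7.0 and 13.7 (mean 10.4 ± 4.77, SD, n = 2) without a series-wide end peak. Eif5a2 had 6.0 and 12 (mean 8.98 ± 4.22, SD, n = 2), also without one. In these last 3 genes replicate 2 was the higher.

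Eif2a, Eif2d and Eif6 encode factors outside these complexes. Eif6, whose protein keeps the ribosomal subunits apart, had 11.0 and 7.98 at its series-wide peak, which lay 588 bp from an end of the model and 17 bp from an end of a neighbouring gene. The windows of Mmp24 and BC029722 also held this peak. Eif2a, which can deliver initiator transfer RNA without GTP, had 9.0 and 7.09 (mean 8.05 ± 1.35, SD, n = 2) without a series-wide peak. Eif2d had 6.65 in replicate 2 and no end peak in the other lists, the only member on which the replicates disagreed.

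In total, 31 members had an end peak in all 3 lists and 8 in both replicates but not in the series-wide list, where their replicate folds ran from 6.0 to 13.7. A further 7 had none in any list: Eif1ax, Eif2s3y, Eif3j2, Eif4a3l1, Eif4e1b, Eif4e3 and Eif4g3. The last 3 members are Eif3a and Eif4b, present in the series-wide list alone, and Eif2d. Over all genes, 45.2% had an end peak in both replicates and 34.9% in the series-wide list. The combinations of lists were not counted over all genes, so these counts are not read as particular to the members. The strongest peak was also at an end of another protein-coding gene for 8 of the 33 members with a series-wide peak, against 30.6% of all genes with one.

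End peaks lay at the starts of genes. The strand was known for 39 members. Of these, 27 carried a series-wide peak within 1 kb of the 5′ end of the model, against 32.9% of all genes with a strand, and 0 within 1 kb of the 3′ end, against 5.93%. At the 3′ end, 3 of the 39 carried a peak in replicate 1, against 9.82% of all genes with a strand, and 4 in replicate 2, against 10.8%. The distance to the nearest annotated start was like that over all genes. In replicate 1 the median was 116 bp for 32 members and 117 bp over all genes with a peak there, and in replicate 2 it was 111 bp for 33 members and 123 bp. Among the 24 members with a known strand, a series-wide end peak and overlapping replicate peaks, both summits were upstream of the start in 12, downstream in 8, and on different sides or on the start in 4. No such split was counted over all genes. The farthest of the 24 was Eif4a1, whose strongest peak had summits 997 and 1034 bases inside the gene. A weaker series-wide end peak of Eif4a1 had its summit 0.052 kb from the 5′ end of the model. It had 10 in replicate 1 and 11.1 in replicate 2, and also lay at an end of Senp3. In Eif4e the summits were 1105 and 1047 bases from the outermost start but 28 after and 30 before an inner annotated start, which is the one printed above.

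**Figure D3:**
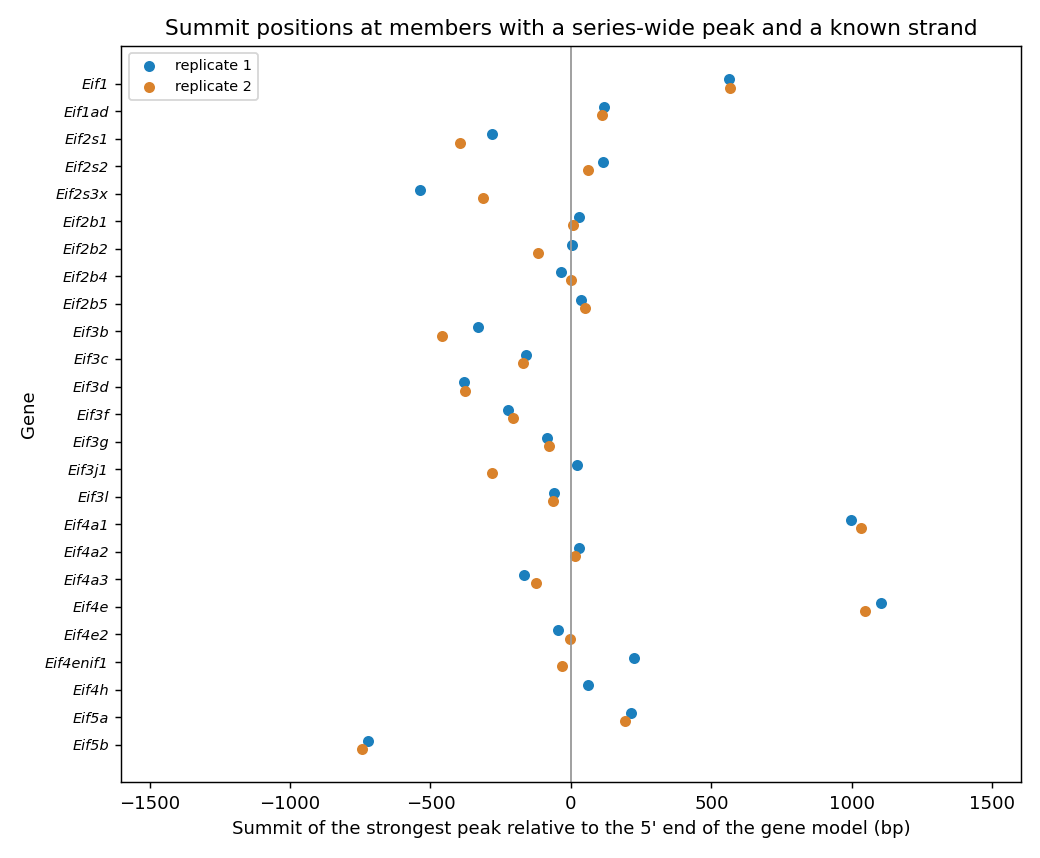
Summit of the strongest end peak relative to the 5′ end of the gene model (bp, negative is upstream) in replicate 1 (blue) and replicate 2 (orange), for the 25 members with a known strand, a series-wide end peak and replicate peaks. The 4 eIF2B genes cluster at 0, and Eif4a1 and Eif4e lie about 1 kb inside; the replicate 2 summit of Eif4h, at the other end of the gene, is off the axis.

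Promoter sequence was at hand for 39 members, with 51 annotated starts. The letters TGATGNAA, the core of the C/EBP-ATF response element to which ATF4 binds with a partner, were searched on both strands. They were found in 1 of the 39 genes, and in 4.13% of all 17492 protein-coding genes with promoters in the table. The match is in Eif2s3x, on the strand opposite to the gene, at chrX:94212740-94212747. It lay within the end peak of that gene in each list, which spanned chrX:94212623-94213286 in the series-wide list. The replicate summits of Eif2s3x lay 538 and 314 bases before the start, outside the printed window. The letters TGACGTCA, the cAMP response element, were in 0 of the 39 and in 2.54% of all genes. No stretch of letters can match both motifs in full, and no match says only that they are not in these windows. Member promoters were rich in CpG, with a median of 24 CpG in 300 bases against 13 over all genes. The median was 24 both for the 27 members with a series-wide end peak and for the 12 without. Over all genes it was 21 with such a peak and 7 without. The part of CpG content in the members' share of peaks was not tested.

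With the gene body and 10 kb on each side, 41 of 49 members held a series-wide peak, against 61.1% of all genes. The count was 43 in each replicate, against 72.3% in replicate 1 and 74.1% in replicate 2. Members held a mean of 1.65 peaks in this region and all genes 1.75, with median gene lengths of 17.4 kb and 17.1 kb. Of the 81 member peaks, 35 were at gene ends, 20 inside genes and 26 in the flanks. Of those in the flanks, 8 lay at an end of another gene, such as Gtf3c2 near Eif2b4 and Dvl3 near Eif2b5.

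Several members had strong peaks away from their ends. A peak 3.51 kb from Eif3l had 32.5 in replicate 1 and 35.9 in replicate 2 (mean 34.2 ± 2.41, SD, n = 2), above the 12.5 ± 0.73 (SD, n = 2) at its start. A peak 6.19 kb from Eif3m had 23.5 and 30.1 (mean 26.8 ± 4.7, SD, n = 2), and one 6.42 kb from Eif3j2 had 25.5 and 19.1 (mean 22.3 ± 4.55, SD, n = 2). Neither of those 2 genes had a series-wide end peak, and none of the 3 peaks lay within 1 kb of another gene end. Inside Eif2b3, a peak 29.6 kb from the nearer end had 17.5 and 26.2 (mean 21.8 ± 6.12, SD, n = 2), while its end peak had 11.7 ± 1.66 (SD, n = 2). In Eif4g3 a peak 22.2 kb from the nearer end had 23.0 in each replicate (mean 23.0 ± 0.0343, SD, n = 2). In Eif3h, 4 peaks lay inside the gene and 1 at its end, which had 24.0 and 19.5 (mean 21.8 ± 3.18, SD, n = 2). The inner peak with the highest mean had 23.5 and 22.6 (mean 23.1 ± 0.633, SD, n = 2), and another had 18.5 and 24.4 (mean 21.4 ± 4.16, SD, n = 2). Of these 3 peaks the end peak was the highest in replicate 1 and the lowest in replicate 2, so their order does not hold across replicates. Which gene such a peak acts on is not given by its place.

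**Figure D4:**
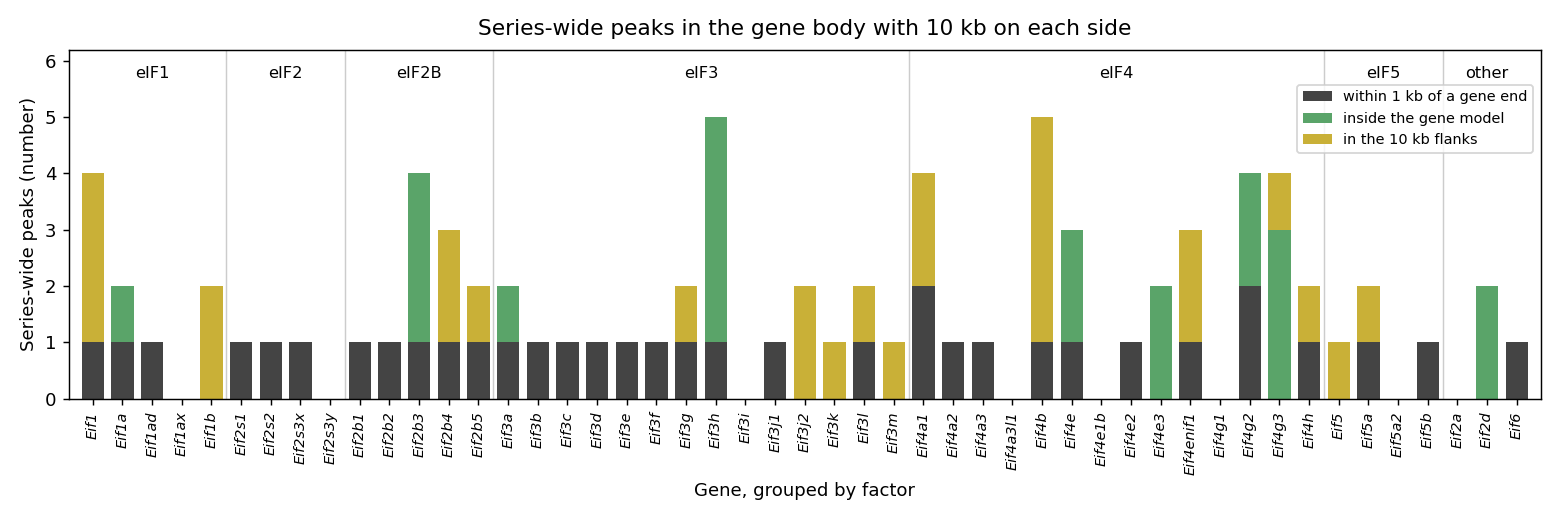
Number of series-wide peaks per member within 1 kb of a gene end (dark), inside the gene model (green) and in the 10 kb flanks (yellow). Eif3h and Eif4b have 5 each, Eif3h mostly inside the gene and Eif4b mostly in the flanks.

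Other genes of translation control were read from a list of 41. Of these, 32 carried a series-wide end peak, with a median fold of 15.3, against 34.9% of all genes. An end peak was carried by 35 in replicate 1 and 38 in replicate 2, against 48.2% and 50.2% of all genes. The 35 of replicate 1 did so in both replicates, against 45.2% of all genes. Among genes that control eIF2, 6 of 9 carried a series-wide end peak. Ppp1r15b, which encodes the standing regulator of the phosphatase for eIF2 alpha, had 39.5 and 38.6 (mean 39.0 ± 0.663, SD, n = 2), close to Eif3d. Ppp1r15a, its stress-induced counterpart, had 27.5 and 23.0 (mean 25.3 ± 3.15, SD, n = 2). Eif2ak2, Gcn1 and Impact had no series-wide end peak. In replicates 1 and 2, Gcn1 had 8.0 and 6.21 and Impact 7.0 and 6.65, while Eif2ak2 had 5.76 in replicate 2 alone. Cap-binding control had 8 of 11, led by Eif4ebp1, which encodes an inhibitor of eIF4E, with 34.0 and 31.9 (mean 33.0 ± 1.48, SD, n = 2), and Mknk2, an eIF4E kinase gene, with 29.5 and 27 (mean 28.3 ± 1.74, SD, n = 2). Mknk1, Larp1 and Pdcd4 had no series-wide end peak. In replicate 2 alone Mknk1 had 12 and Pdcd4 6.21, while Larp1 had no end peak in any list. Eif4ebp1 was thus above its target gene Eif4e, at 8.88 ± 1.24 (SD, n = 2), by more than the spread of either.

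Initiation partners had 8 of 9, elongation genes 8 of 9 and termination genes 2 of 3. The highest in each were Dhx29, a helicase gene, with 18.2 ± 1.88, and Pabpc4, of a poly(A)-binding protein, with 17.7 ± 1.84. Among elongation genes Eef1d had 21.6 ± 0.822 and Eef1g 18.4 ± 2.23, both subunits of the exchange factor for the elongation factor. The release factor genes Etf1 and Gspt1 had 14.2 ± 3.21 and 12.4 ± 1.94 (each SD, n = 2). Paip1, which lies beyond the replicate lists, Eef1e1 and Gspt2 had no series-wide end peak. Eef1e1 had 5.5 in replicate 1 and 9.31 in replicate 2, and Gspt2 had no end peak in any list.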

How the data were processed

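Peak lists of 2 ATF4 pull-down samples and of the series were used; 0 value columns were left unmapped. The submitters' processing notes list Bowtie2, MACS2, deepTools and the build mm10, with no roles or versions. The series-wide list gives a fold enrichment (ratio) per peak, as deposited by the authors, and the offset of the summit. The replicate lists give, as deposited by the authors, the −log10 of a p-value or q-value per peak, besides position and summit; the values do not tell p from q. Replicate folds were read from peaks with the same start, end and summit in the series-wide list (17420 and 21053 peaks, of which 0 and 13 disagreed by more than 0.01); the 4 and 5 lowest values continue the same steps. A series-wide peak carries the higher of the replicates' folds. Where a series-wide peak joins several peaks of 1 replicate (1259 peaks), the deposited summit offset was their mean offset in 1234, so summits were taken from the replicate lists.

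Genes are RefSeq models of GRCm38.p6, the assembly of mm10. Strand and sequence came from a RefSeq promoter table, with 39 of 49 members matched by gene ID; Eif1a, Eif2b3, Eif3e, Eif3h, Eif3i, Eif3j2, Eif4e1b, Eif4e3, Eif4g2 and Eif6 were not. A window is 1 kb on each side of either gene end, or the gene with 10 kb. No test was run: members and lists were chosen with earlier results of these data known, and genes are not replicates. Members named with values were, in each factor, the up to 4 highest by series-wide fold, those without a series-wide end peak, those on which the replicates disagree and those with a shared peak; in each group of the translation list, the up to 2 highest and those without one. Others were named after their values were seen. Window counts were tested on simulated peaks. Tables were made in Python 3.11.15 with pandas 2.3.3, NumPy 2.4.6 and SciPy 1.17.1, and plots with Matplotlib 3.10.9.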

Additional observations from a re-analysis of the deposited data

How the results depend on the processing

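Over the counts of genes with a peak, 58 of 83 alternatives stayed within 1.5 times the reported count. When the list was limited to its strongest 50% by fold, end peaks fell to 16 members and 20 genes of the translation list, and peaks in the gene body with 10 kb to 27 members. By factor that left 3 eIF1, 1 eIF2, 1 eIF2B, 6 eIF3, 3 eIF4, 2 eIF5 and 0 other genes. With the strongest 20% the counts were 5 members, 5 list genes and 11 members in the gene body, and by factor 1 eIF1, 0 eIF2, 0 eIF2B, 3 eIF3, 1 eIF4, 0 eIF5 and 0 other genes; fewer peaks enter by construction. A 5 kb window gave 2 of the 3 other genes. From a single replicate the eIF5 count was 4 in each case and the count of other genes 2 to 3; with a peak asked for in both replicates they were 4 and 2. The members' median fold was 10.5 to 12.2 from a single replicate. The mean fold of 3 of 39 members moved by more than its SD with a 5 kb window: Eif1a to 16.0, Eif3l to 34.2, and Eif1b, whose replicate peaks then lay at different sites. Counting by annotated starts, by 5′ ends or within the reach of the replicate lists was chosen after seeing the data and left 28, 27 and 31 members. No paired analysis was possible because the input samples that share replicate numbers have no values here. Depth is unknown, so the absence of a peak says only that none was listed.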
